A study of Capra hircus with 6 samples.

Results

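LAPTM4A, RAB11FIP2, WASHC2A and VAC14 are 4 genes of the endosome and lysosome system that each have a probe with a lower signal in the mammary gland of goats of the Low CSN1S1 genotype than in goats of the High genotype. They are 4 of 6535 genes that have a probe of 1 symbol on the array. Their probes were taken by gene symbol from the platform annotation, which gave 5 probes of 8379: Bt00006089 for LAPTM4A, Bt00005265 for RAB11FIP2, Bt00000603 and Bt00007879 for WASHC2A, and Bt00005120 for VAC14. The genes had been picked because their ratios of Low over High stood out on these same arrays, so those ratios are a description here and are not tested again. Of the 5 probes 5 passed the filter on dim signals, as did 6733 of all probes, but Bt00000603 passed only through its readings in High goats.

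Endosomes sort material taken up from the cell surface, sending receptors back to the membrane through recycling endosomes or onward to lysosomes, where acid hydrolases degrade it. The lactating mammary epithelium takes up nutrients and exports milk through its membranes, and its lysosomes also break down surplus cell material. LAPTM4A encodes a membrane protein of late endosomes and lysosomes. RAB11FIP2 encodes an effector that links the small GTPase Rab11 to the motor myosin Vb on recycling endosomes. WASHC2A, also called FAM21A, encodes the subunit that tethers the actin-nucleating WASH complex to retromer, a coat that retrieves cargo from endosomes. VAC14 encodes the scaffold of the PIKfyve kinase complex, which makes a signalling lipid of the endosome and lysosome membrane.

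The study set 3 goats of the Low CSN1S1 genotype against 3 goats of the High genotype, and all 6 were lactating and had been deprived of food for 48 h. CSN1S1 encodes the milk protein alpha-s1-casein. Each Low goat shared 2 arrays with 1 High goat, with the Cy5 and Cy3 dyes exchanged on the second, so both arrays of a pair hold the same 2 RNA samples and count as 1 replicate, which leaves n = 3 pairs, named A, B and C. Fed goats and further details of the alleles were not analysed here. On these bulk tissue samples fewer cells of a type and less RNA per cell cannot be told apart.

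The CSN1S1 probe was lower in Low goats on all 6 arrays, as the labels imply, at -2.71 ± 0.13 on the log2 scale (SD, n = 3; limma adjusted p = 2.91e-09). The signal of a probe over its local background had a median between 2.66 and 6.01 per dye reading, and a reading had 66.3% to 87.4% of probes above background. Among all tested probes the standard error of a ratio (log2) had a median of 0.039 and the median ratio 0.0031. In limma's test, with an adjusted p under 0.05, 28 of 6733 probes were lower in Low goats, a share of 0.416%, and 2 were higher, a share of 0.0297%. Defining transcripts of the lactating epithelium (CSN3, LALBA, KRT8 and KRT18) stood above background in 6 of 6 readings of each genotype. ELF5, another such marker, did so in 5 of 6 Low and 6 of 6 High readings. BTN1A1 and XDH were on the array but had no tested probe.

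LAPTM4A had the lowest ratio of the 4 genes and had rank 3 from the bottom among the 6733 tested probes. Where the Low goat was in Cy5, its log2 ratio of Low over High was -1.21 in pair A, -0.71 in pair B and -1.03 in pair C. With the dyes exchanged it was -1.38, -0.87 and -1.53 in the same order. The ratio was thus below 0 on every array, and pair B gave the smallest difference in both dye orientations.

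As means of a pair's arrays the LAPTM4A log2 ratios were -1.30 in pair A, -0.79 in pair B and -1.28 in pair C, which gave -1.12 ± 0.29 (SD, n = 3), that is, 2.17-fold lower in Low goats. The normalized log2 level was 7.90, 7.07 and 7.54 in the Low goats of pairs A, B and C, against 9.19, 7.86 and 8.82 in the High goats of the same pairs. Between goats of different pairs the genotypes overlapped slightly, since the High goat of pair B lay just below the Low goat of pair A. Of the Low readings of LAPTM4A 5 of 6 stood above background, and of its High readings 6 of 6. The exception was the Low goat of pair B in Cy3, where a signal of 132 scanner units lay over a local background of 84.1. The duplicate spots of LAPTM4A differed by at most 0.13 on the log2 scale on any array.

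RAB11FIP2 was lower in the Low goat on every array as well, and its arrays spread more widely within pair B than within the other pairs. With the Low goat in Cy5 its log2 ratio was -1.02 (A), -0.76 (B) and -0.78 (C). With the Low goat in Cy3 it was -0.91, -0.20 and -0.55. The difference was smaller on the Cy3 array of each pair, by the widest margin in pair B, where that array had the ratio nearest to 0.

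The pair means of RAB11FIP2 were -0.96, -0.48 and -0.67, for an average of -0.70 ± 0.24 (SD, n = 3), which is a 1.63-fold lower signal in Low goats. Its normalized log2 level was 7.94, 7.78 and 7.60 in the Low goats of pairs A, B and C, against 8.90, 8.26 and 8.26 in their High partners. All Low goats lay below all High goats, and the highest High level belonged to pair A. RAB11FIP2 stood above background in 6 of 6 readings of both genotypes. Its duplicate spots differed by at most 0.30, in pair C where the Low goat was in Cy3.

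**Figure D1:**
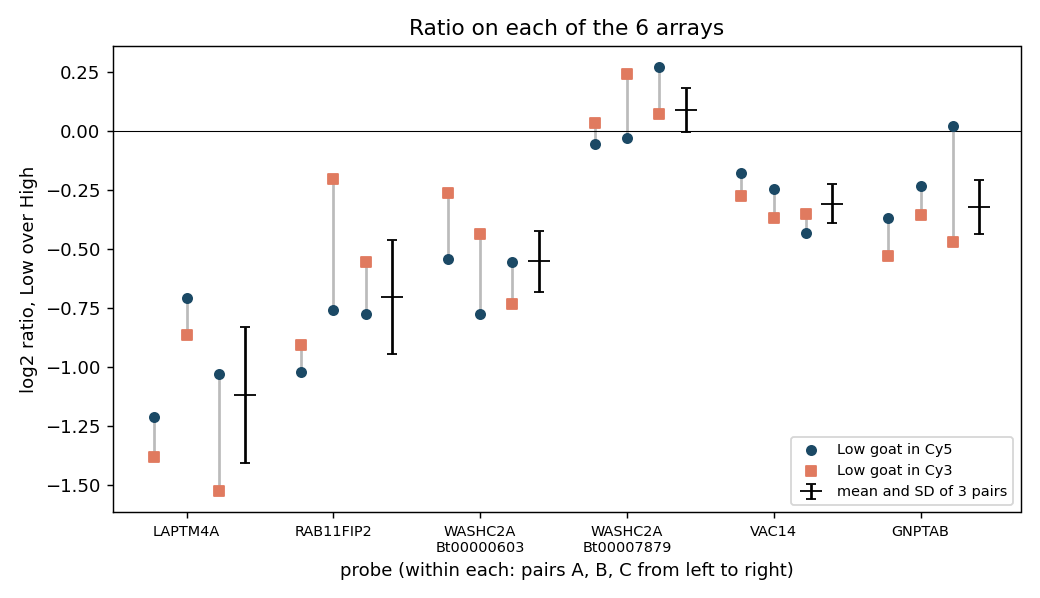
Log2 ratio of Low over High (vertical axis) on each of the 6 arrays for the 5 probes and for GNPTAB, with circles for arrays with the Low goat in Cy5, squares for those with the Low goat in Cy3, a grey line joining the 2 arrays of a pair, and a bar for the mean and SD of 3 pairs. All points of LAPTM4A, RAB11FIP2, WASHC2A Bt00000603 and VAC14 lie below 0, whereas WASHC2A Bt00007879 has 2 points below 0 and 4 above.

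VAC14 had the smallest difference, and the smallest SD between pairs, of the 4 probes that were lower in Low goats. Its log2 ratio was -0.18 (A), -0.24 (B) and -0.43 (C) with the Low goat in Cy5, and -0.27, -0.37 and -0.35 with the Low goat in Cy3. All 6 values were below 0, between -0.43 and -0.18. The pair means were -0.23, -0.31 and -0.39, an average of -0.31 ± 0.08 (SD, n = 3), which is a 1.24-fold lower signal in Low goats. The normalized log2 level was 8.47, 8.37 and 8.61 in Low goats and 8.69, 8.68 and 9.0 in High goats, so the genotypes did not overlap, and the Low goat of pair C lay only a little below the High goats of pairs A and B. VAC14 stood above background in 6 of 6 readings of each genotype.

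WASHC2A was the symbol of 2 probes that gave different answers. On probe Bt00000603 the log2 ratio with the Low goat in Cy5 was -0.54 (A), -0.78 (B) and -0.55 (C), and with the Low goat in Cy3 it was -0.26, -0.44 and -0.73. All 6 values were below 0, and pair A gave the smallest pair mean at -0.40, against -0.61 in pair B and -0.64 in pair C. The average was -0.55 ± 0.13 (SD, n = 3).

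The Low side of that ratio rests on readings not above background. The Bt00000603 signal of the Low goats was 75.6, 55.9 and 82.8 scanner units in Cy5 (pairs A, B and C) over local backgrounds of 38.5, 34.8 and 49.96, and 94.6, 116.9 and 80.7 in Cy3 over 66.1, 64.4 and 63.6. None of these 6 readings was well above background, by the criterion of 2 background SDs. The High goats read 109.7, 129.0 and 126.1 units in Cy5 over backgrounds of 35.0, 34.1 and 30.4, and 187.8, 141.3 and 156.3 in Cy3 over 86.6, 66.0 and 57.2, and all 6 of these readings stood above background. Each Low reading was then set no lower than the dimmest above-background signal of any probe in the same array and dye. With this floor Bt00000603 was 1.35-fold lower in Low goats as the mean of the 3 pairs. The floor does not use this probe's own local background plus 2 SDs, so this value is not a lower limit of the difference. It holds for the main processing only, and the value with signal medians, given below, is slightly smaller. Its normalized log2 level was 6.995, 6.81 and 6.74 in Low goats and 7.40, 7.42 and 7.38 in High goats. The High goats thus lay close together. The Low values are readings not above background, and the floor above sets them higher where they fell below the dimmest above-background signal. The duplicate spots of this probe differed by a median of 0.26 and by up to 0.48 on the log2 scale, in pair B with the Low sample in Cy3.

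The other WASHC2A probe, Bt00007879, did not pass the threshold and had a mean ratio above 0. Its log2 ratio was -0.054 (A), -0.029 (B) and 0.27 (C) with the Low goat in Cy5, and 0.036, 0.24 and 0.074 with the Low goat in Cy3. The pair means were -0.0090, 0.11 and 0.17, an average of 0.090 ± 0.092 (SD, n = 3; limma adjusted p = 0.467), and the ratio was above 0 on 4 of 6 arrays. The probe stood above background in 6 of 6 readings of both genotypes. Its normalized log2 level was 7.96, 8.31 and 7.98 in Low goats, against 7.96, 8.20 and 7.81 in High goats, so the genotypes overlapped.

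The ratio of Bt00000603 minus that of Bt00007879 was -0.39 (A), -0.71 (B) and -0.82 (C), a fitted average of -0.64 ± 0.22 (SD, n = 3). With the Low readings of Bt00000603 raised to the dimmest above-background signal of any probe, the probes differed by 0.52, which is not a lower limit. Over the 203 genes with several tested probes, the ratios of 1 gene's probes spanned a median of 0.052 on the log2 scale, and 95% of genes spanned at most 0.15. Of the other genes 0 spanned more than this value. Bt00000603 was picked for its ratio in this contrast, which by itself makes a wide span likely. Nothing is therefore read from the comparison with other genes. Human genomes carry a near-identical copy of the gene, WASHC2C. The sequences and targets of the 2 probes were not analysed here. Which transcripts each reads, and whether both read the same gene, was therefore not tested, and no direction is given for the WASHC2A gene.

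**Figure D2:**
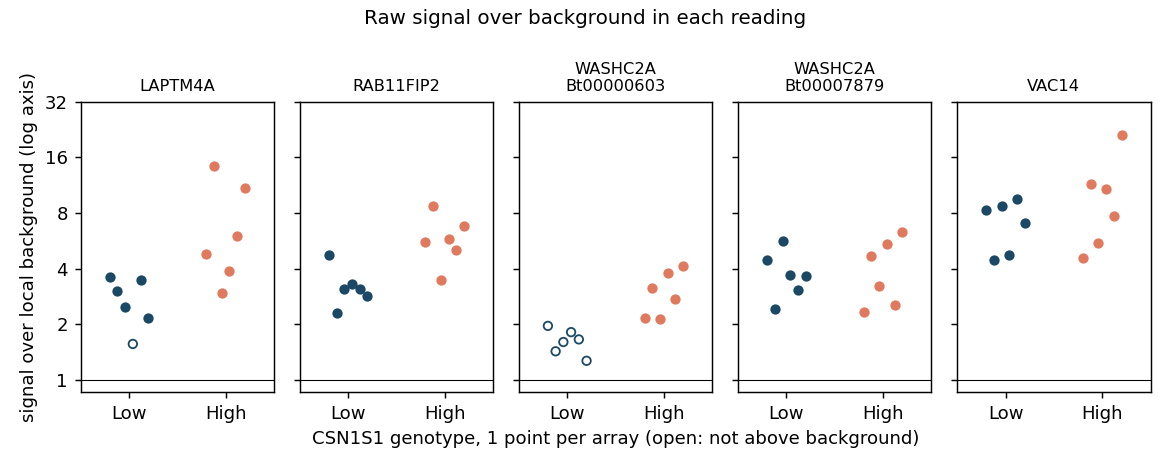
Raw signal divided by local background (vertical log axis, no unit) in the 6 readings of Low goats and the 6 readings of High goats for each probe, with open points for readings not above background. The Low readings of WASHC2A Bt00000603 are all open, whereas VAC14 stands above background in all 12 readings.

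Of the 5 probes 4 had passed limma's threshold as lower in Low goats, which was true of 0.416% of all tested probes, with adjusted p of 4.48e-04 for LAPTM4A, 0.00242 for RAB11FIP2, 0.00127 for WASHC2A Bt00000603 and 0.0124 for VAC14. These are the values by which the genes were picked. The same 4 probes had a ratio below 0 on all 6 arrays, as did 125 tested probes, a share of 1.86%. The level per goat was lower in all 3 Low goats than in all 3 High goats for 3 of the 5 probes, those of RAB11FIP2 and VAC14 and Bt00000603, and for 0.698% of all tested probes. Nothing is read from these counts, because the genes were picked from this contrast and Bt00000603 passed the filter only through its High readings.

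LAPTM4A, RAB11FIP2 and VAC14 did not rank the pairs alike. Pair B had the smallest difference for LAPTM4A and RAB11FIP2, whereas pair A had the smallest for VAC14. The largest difference was in pair A for RAB11FIP2 and in pair C for VAC14. The pairs are not ranked for Bt00000603, whose Low readings were not above background. Averaged over the 3 arrays that held the Low goat in Cy5, the log2 ratio was -0.98 for LAPTM4A, -0.85 for RAB11FIP2, -0.62 for Bt00000603 and -0.29 for VAC14. With the Low goat in Cy3 it was -1.26, -0.55, -0.48 and -0.33 for the same probes, so each probe was lower in Low goats in both dye orientations.

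**Figure D3:**
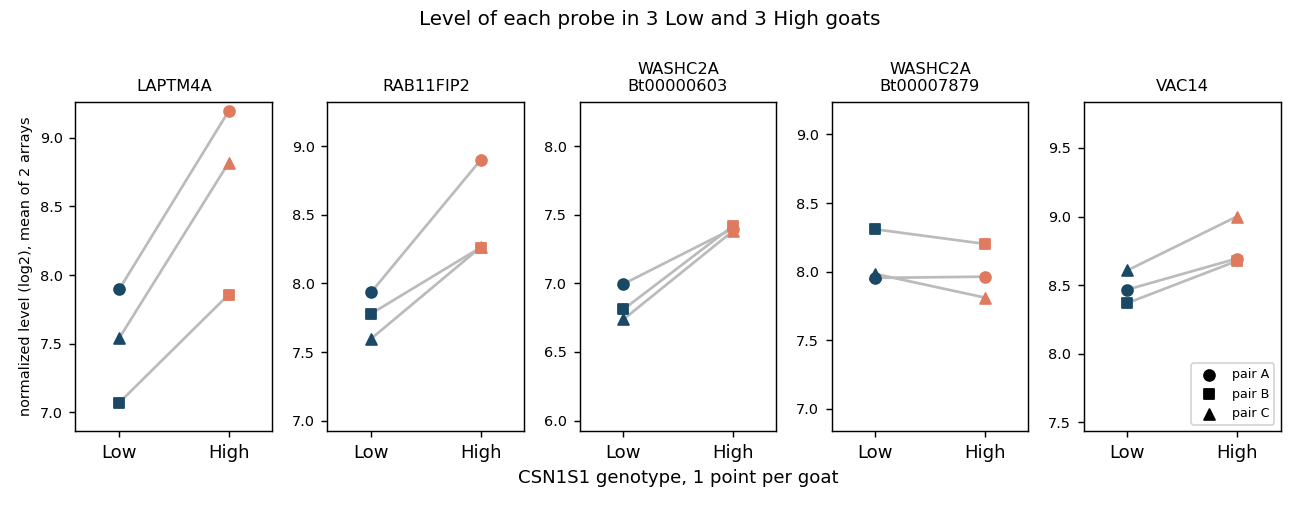
Normalized log2 level (vertical axis, the mean of 2 arrays per goat) of each probe in the 3 Low and the 3 High goats, with 1 marker shape per pair and a grey line joining the goats of a pair. Each panel has its own axis of equal span, and levels are not comparable between probes. The Low goat lies below its High partner in every pair for LAPTM4A, RAB11FIP2, WASHC2A Bt00000603 and VAC14, whereas for WASHC2A Bt00007879 it lies above its partner in pairs B and C.

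The deposited series table, which holds the authors' own normalized log2 ratios, gave the same directions. Its mean of the pair values was -1.18 for LAPTM4A, -0.75 for RAB11FIP2, -0.73 for Bt00000603, 0.12 for Bt00007879 and -0.35 for VAC14. For Bt00000603 the value moved from the -0.55 given above by more than the spread between pairs. Offset 10 in the background correction gave -0.81, no background correction -0.735 and signal medians -0.42. The size of the Bt00000603 difference changed with the background treatment and with the signal summary, while its sign was the same in these 4 settings.

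**Figure D4:**
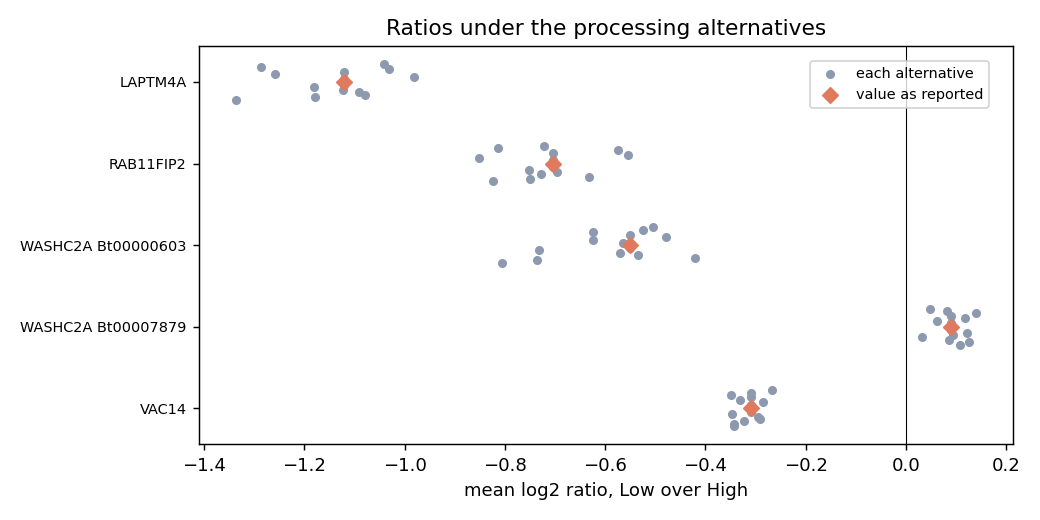
Mean log2 ratio of Low over High (horizontal axis) for each probe as reported (diamonds) and under each processing alternative that gave a value (grey points, spread vertically for legibility). The points of LAPTM4A, RAB11FIP2, WASHC2A Bt00000603 and VAC14 all lie below 0, those of WASHC2A Bt00007879 all lie above 0, and Bt00000603 runs from -0.81 to -0.42.

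Direct relatives and partners of the 4 genes were examined next, whatever their values. Of 21 looked for, 7 were tested, on 8 probes, and 0 passed limma's threshold, with ratios from -0.024 to 0.080 and adjusted p from 0.499 to 0.980. Of these 8 probes 0 had an unadjusted p under 0.05, against 11.3% of all tested probes. With 0.416% of all probes called lower and 0.0297% higher, a count of 0 in 8 probes does not set the partners apart. LAPTM5, the lysosomal relative of LAPTM4A expressed in leukocytes, had a log2 ratio of 0.044 ± 0.11 (SD, n = 3). Among partners of RAB11FIP2, the related Rab11 effectors RAB11FIP3 and RAB11FIP5 were at 0.028 and -0.024, and MYO5B, the gene of myosin Vb, at 0.0032. RAB11A itself was too dim to test: 1 of 6 Low readings and 2 of 6 High readings exceeded the background.

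For the WASH complex, the subunit gene WASHC3 was at 0.026 and 0.080 on its 2 probes, and VPS35, the retromer subunit that WASHC2A binds, at 0.071. The VPS35 probe was dim, above background in 3 of 6 readings of each genotype. PIKFYVE, the kinase that VAC14 scaffolds, was at 0.016 ± 0.074 (SD, n = 3). Other partners looked for had no probe with their symbol alone on the array and could not be read. Among them were LAPTM4B, RAB11B, RAB25, RAB11FIP1, WASHC1, WASHC5, VPS26A, VPS29 and FIG4.

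The wider endosome and lysosome system was read through 10 lists of genes by role, in which 157 genes other than the 4 were tested, with 1 probe per gene. GNPTAB, which encodes the catalytic subunits of the phosphotransferase that begins the mannose 6-phosphate tag of lysosomal enzymes, was the 1 gene that passed limma's threshold. It was lower in Low goats, and 0 genes were higher, beside 0.416% of all tested probes called lower and 0.0297% called higher, so 1 call in 157 genes does not set the lists apart. Of the 157 genes 77 (49%) had ratios below 0 and 80 above, while 48.2% of all tested probes were below 0. In limma's test 13 (8.28%) had an unadjusted p under 0.05, against 11.3% of all tested probes. Their median log2 ratio was 0.0011, beside 0.0031 over all tested probes, and their SD was 0.060, beside 0.080. Ratios ran from -0.32 to 0.16. LAPTM4A, RAB11FIP2 and Bt00000603 lay outside the range of the 157 genes, and VAC14 within it. The 4 genes were picked for low ratios in this contrast, so nothing is read from their place beside that range. These values describe the lists, and no test was made of a list.

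GNPTAB had a log2 ratio of -0.37 (A), -0.23 (B) and 0.020 (C) with the Low goat in Cy5, and of -0.53, -0.36 and -0.47 in these pairs with the Low goat in Cy3. It was below 0 on 5 of 6 arrays, and the exception was pair C with the Low sample in Cy5. The pair means of -0.45, -0.29 and -0.23 averaged -0.32 ± 0.11 (SD, n = 3; limma adjusted p = 0.0191), that is, 1.25-fold lower in Low goats. Its normalized log2 level was 8.21, 7.11 and 7.56 in Low goats and 8.66, 7.41 and 7.79 in High goats, so goats of different pairs overlapped. The call was lost without pair B (adjusted p = 0.114), with the authors' ratios (0.143), with no background correction (0.0974), on the Low-in-Cy5 arrays alone (-0.19, adjusted p = 0.0827) and with unpaired goats.

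Lysosomal membrane proteins, the class of LAPTM4A, had 10 of 14 other tested genes below 0 and 4 above (median -0.0092). Their smallest p-values belonged to CD68, a macrophage lysosomal glycoprotein (log2 ratio 0.12), CD164, a sialomucin (-0.062), and TSPAN1, a tetraspanin (-0.052), and 0 of the 14 passed (lowest adjusted p 0.388; 1 with an unadjusted p under 0.05). Lysosomal hydrolases and their cofactors had 13 of 23 below 0. DNASE2, the acid nuclease, gave the highest ratio of the 157 genes at 0.16 ± 0.10 (SD, n = 3, limma adjusted p = 0.275), above 0 on 5 of 6 arrays. It was read from the brighter of its 2 tested probes only. CTSK, a cysteine protease, was at -0.091 and HYAL2, a hyaluronidase, at -0.090. The 13 tested vacuolar proton pump genes, whose products acidify these compartments, had 8 ratios below 0, with ATP6AP1 at 0.087, ATP6V1B1 at 0.086 and ATP6V1H at 0.089, and 0 passed in limma's test (0 with an unadjusted p under 0.05).

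Genes of Rab11 and the recycling endosome, the class of RAB11FIP2, had 4 of 15 ratios below 0 and 11 above (median 0.0096). EXOC8, an exocyst subunit, was at -0.084, and the membrane-remodelling ATPases EHD2 and EHD1 were at 0.054 and 0.044, with 0 of the 15 past the threshold and 0 with an unadjusted p under 0.05. The WASH, retromer and sorting nexin list, the class of WASHC2A, had 6 of 12 below 0. SNX1, a sorting nexin of retromer, was below 0 on 6 of 6 arrays at -0.14 ± 0.029 (SD, n = 3), with an adjusted p of 0.247, while its relative SNX2 was at 0.088. The endosomal phosphoinositide list, which holds enzymes and also non-enzymes such as VAC14, had 5 of 12 other genes below 0. The myotubularin-family genes MTMR11 and MTMR4 were at -0.10 and -0.097 there, and MTMR14 was at 0.098. For MTMR11 this is the brighter of 2 tested probes.

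In the remaining 4 lists GNPTAB alone passed. Endosome Rabs, tethers and fusion factors had 7 of 13 below 0, with VPS11 at -0.037, RAB9A at 0.041 and RBSN at 0.043. Genes of ESCRT, the machinery that sorts ubiquitinated cargo into lysosomes, had 8 of 16 below 0. Among them HGS, which recognises that cargo, was at -0.19 ± 0.18 (SD, n = 3; adjusted p = 0.321), and its pair means were -0.075 (A), -0.098 (B) and -0.39 (C). IST1 was at 0.12 and CHMP2A at -0.084. The lysosome biogenesis and nutrient sensing list had 10 of 23 below 0, with LAMTOR2, a subunit of the lysosomal Ragulator complex, at -0.15 ± 0.019 (SD, n = 3) and below 0 on 6 of 6 arrays (adjusted p = 0.198), and HPS6 at 0.12. Autophagy genes had 6 of 16 below 0, with ATG5 at 0.085, ATG4A at 0.080 and ATG3 at 0.066. Of the 157 genes 3 (1.91%) were below 0 on all 6 arrays, SNX1, LAMTOR2 and VPS11, beside 1.86% of all tested probes. In the other direction ATP6V1B1 was above 0 on 6 of 6 arrays, and the share of all tested probes that did so is not given here.

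**Figure D5:**
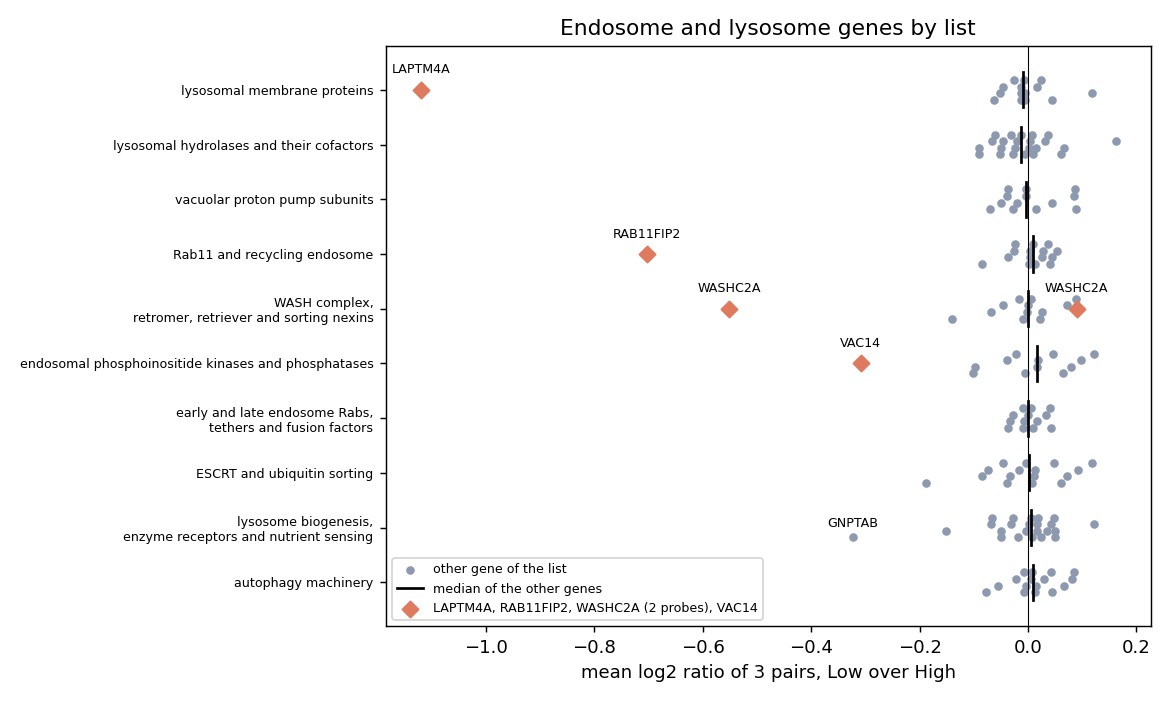
Mean log2 ratio of Low over High over 3 pairs (horizontal axis) for the tested genes of 10 endosome and lysosome lists (rows), with grey points for other genes, black bars for their median and diamonds for the probes of LAPTM4A, RAB11FIP2, WASHC2A and VAC14. The other genes lie between -0.32 (GNPTAB) and 0.16, with medians close to 0 in each list.

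Markers of the cell types in the gland were read beside these results. Of 16 lactating epithelium markers CSN1S1 passed the threshold and the other 15 did not, and 6 of the 16 had an unadjusted p under 0.05, against 11.3% of all tested probes. Beside CSN1S1, the log2 ratio ran from -0.67 for LTF, below 0 on 6 of 6 arrays, to 0.55 for LALBA, the alpha-lactalbumin gene, above 0 on 6 of 6 arrays. PAEP, the beta-lactoglobulin gene, was at -0.44. In size these milk protein ratios lay between those of LAPTM4A (-1.12) and VAC14 (-0.31). Their spreads between pairs (SD 0.56, 0.46 and 0.43) were wider than that of any probe of the 4 genes. Of 15 macrophage and other leukocyte markers 0 passed in limma's test (4 with an unadjusted p under 0.05), with log2 ratios from -0.16 for ITGB2 to 0.15 for FCGR2B. Of 12 markers of myoepithelium, stroma, endothelium and adipocytes 0 passed (4 with an unadjusted p under 0.05, in each list a larger share than the 11.3% of all tested probes), with 9 below 0, a median of -0.072 and a lowest ratio of -0.27 for LEP, the leptin gene. For LEP this is the brighter of 2 tested probes. The part of tissue makeup in the differences of LAPTM4A, RAB11FIP2, Bt00000603 and VAC14 was not tested.

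Finally, the probes nearest to each of the 5 over the 6 arrays were found by the root mean square difference of their log2 ratios. Only tested probes with 1 symbol, of other genes, were searched. For LAPTM4A the nearest was RAB11FIP2, at 0.53, followed by MTCH2, a mitochondrial outer membrane protein gene, at 0.55 and LRPPRC, which encodes a mitochondrial RNA-binding protein, at 0.57. None of the searched probes thus came nearer to LAPTM4A than 0.53. RAB11FIP2 lay nearest to LRPPRC (0.22), ADHFE1, a mitochondrial dehydrogenase gene (0.32), and LTF, the lactoferrin gene (0.32). Bt00000603 lay nearest to ADHFE1 (0.21), MTCH2 (0.23) and LGI1 (0.25), and VAC14 to ZNF143, UNC119 and CYYR1 (0.13 each). Of the Low readings of Bt00000603 0 of 6 stood above background, so nothing is read from its neighbours. The nearest probes of Bt00007879 were ZFPM2 (0.044), IER2 (0.053) and ATP6V1B1 (0.058). This measure follows the size of a ratio as well as its pattern, and it covers 6 arrays of 3 pairs.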

How the data were processed

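Channel intensities, read with ImaGene 6.0 per the labels (6.0.1 per the file headers), were deposited as linear signal and background values, not yet subtracted. Flag codes 1, 2 and 3 in the deposited scanner files were read as manual, empty and poor, since in 12 of 12 files their counts equal the header's. The deposited series table gives the authors' log2 ratios per spot. Their scale and direction, Low over High, follow from correlations of 0.866 to 0.917 with the ratios computed here. Column medians ran from -0.032 to 0.032. Their normalization was not given in the sources used here.

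Signal means were corrected with normexp (offset 50) and normalized by loess within each array in limma 3.58.1 (R 4.3.3). Between 24 and 61 manual or poor spots per array were dropped, and values were averaged over duplicate spots and then over a pair's arrays. Probes exceeding the background by 2 of its SDs in 6 or more of 12 readings, with a value on all 6 arrays, were tested against 0 with lmFit and eBayes and Benjamini-Hochberg adjustment over 6733 probes. The prior had 7.47 degrees of freedom, against 2 from the pairs, so a spread pooled over probes carries most of the weight. Levels are single channels after loess and Aquantile. The floor for Bt00000603 sets each Low reading no lower than the dimmest above-background signal of any probe in that array and dye. It is not the probe's own limit of detection. With 3 pairs, precision is limited by their number.

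The genes, lists and naming rule were chosen with earlier results of these data known. Named were the 4 genes, CSN1S1, 21 relatives and partners, every list gene past the threshold, up to 3 genes of smallest p per list, and the 3 nearest probes of each of the 5. Marker genes were picked for their range or as defining transcripts. Symbols come from the platform annotation, with 1 symbol for 6840 probes, several for 93 and none for 1446, and each list gene was read from its brightest tested probe. Alternatives covered background correction, normalization, filters, flags, the authors' ratios, dye orientations, unpaired goats and leaving out each pair.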

Additional observations from a re-analysis of the deposited data

How the results depend on the processing

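The count of probes past the threshold, 30, was 19 with offset 10, 19 with signal medians, 18 with the authors' ratios, 1153 on the Low-in-Cy5 arrays, 2460 on the Low-in-Cy3 arrays, and 0 in limma with unpaired goats (11 with an unadjusted p under 0.05). Leaving out a pair gave 23 to 66, with 66 without pair A. The count of list genes past the threshold, 1, was 0 with no background correction, with the authors' ratios, with unpaired goats and when a signal above background was required in 12 of 12 readings, where GNPTAB was not tested. It was 27 on the Low-in-Cy5 arrays and 60 on the Low-in-Cy3 arrays, and 0 to 1 with a pair left out, 0 without pair B. The cause of these changes was not tested. A single dye orientation does not average out dye effects, whose SD across probes was 0.17 (A), 0.19 (B) and 0.13 (C).

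LAPTM4A ran from -1.34 to -0.98 over 15 alternatives, RAB11FIP2 from -0.85 to -0.55, VAC14 from -0.35 to -0.27 and Bt00007879 from 0.032 to 0.14 over 16 each, without a change of sign and by less than the spread between pairs. Bt00000603 moved to -0.81 with offset 10, -0.735 with no background correction, -0.42 with signal medians and -0.7325 with the authors' ratios, and by less than that spread in 11 others. Under the filter of 12 of 12 readings LAPTM4A and Bt00000603 had no value. The filter settings and the unpaired goats leave a probe's mean ratio as it is by construction, so they are no check on these ratios. The alternatives for GNPTAB were chosen after seeing the data. It kept its call in 10 of 15 and lost it with no background correction (-0.3155, adjusted p = 0.0974), the authors' ratios (-0.3152, adjusted p = 0.143), the Low-in-Cy5 arrays (-0.19, adjusted p = 0.0827) and unpaired goats (-0.32, adjusted p = 1.0). Without a pair it ran from -0.37 to -0.26, and the call was also lost without pair B. Each array's ratio already sets the goats of a pair against each other. Depth here is signal over background, and it limits Bt00000603, which was not above background in any Low reading.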
